A study of Mus musculus with 17 samples.

Results

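The small leucine-rich proteoglycans are a family of secreted matrix proteins that carry leucine-rich repeats and, in many members, chondroitin, dermatan or keratan sulfate chains. They bind the surface of collagen fibrils and set how fibrils grow and space, and in dermis they are among the main non-collagen products of fibroblasts. Decorin and biglycan also bind TGF-β and cell surface receptors, which is why the family is often followed in fibrosis. The 8 members described here were taken by name, with earlier results of these data known: Dcn (decorin), Lum (lumican), Bgn (biglycan), Fmod (fibromodulin), Ogn (osteoglycin, also called mimecan), Prelp, Aspn (asporin) and Podn (podocan). All 8 were among the 30406 genes that every one of the 17 libraries listed.

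The libraries held single cells sorted as GFP+ from skin or kidney of 8-week-old mice in which Cre, driven by the PDGFRβ promoter, switched on the Z/EG reporter. All groups shared that Cre and reporter, and the study notes that the promoter is also active in leukocytes, so the sort was not limited to pericytes. SARATg mice also carried a Cre-dependent SARA transgene (SARA is the adaptor protein encoded by Zfyve9 in mouse, and the study's transgene was a human ZFYVE9 cDNA) and SARAWT mice did not. Skin came from mice injected under the skin 3 times a week for 2 weeks with PBS (3 SARAWT libraries, 1 SARATg) or bleomycin at 20 mg/kg (3 SARAWT, 1 SARATg), a drug that causes dermal fibrosis. This schedule is that of the labels, whereas the study's methods give daily bleomycin injections and a harvest 1 week after the last. Kidney came from mice injected into the peritoneum 3 times a week for 3 weeks with vehicle (3 SARAWT, 2 SARATg) or aristolochic acid at 5 mg/kg (3 SARAWT, 1 SARATg), a nephrotoxic plant acid. The labels do not tie libraries to single animals, so the p-values below measure the spread between libraries, which may be technical.

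Each barcode's values were whole-number counts of unique molecular identifiers (UMIs) from 3′ ends, and levels are UMIs of a gene per 1000000 UMIs summed over the cells of 1 type in 1 library (CPM). They compare 1 gene across samples and are not a scale between genes. Cell types were gated by marker lists that contain no family member. A cell whose second-highest type score was over 0.5 of the highest was left out as mixed, so kept cells could still hold some markers of another type. Stromal cells (10 markers such as Col1a1, Pdgfra and Dpt) and mural cells, the pericytes and vascular muscle (12 markers such as Rgs5 and Cspg4), are the classes the family turned on. In skin, all 10 stromal markers and 8 of 12 mural markers were over 3-fold above the next class.

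Kept cells ranged from 781 to 6546 per skin library and from 4003 to 10054 per kidney library, and total UMIs from 3355217 in the library labelled SARAWT PBS 2 to 137093834 in a kidney library. The check of the transgene went against the labels of 5 of the 6 skin libraries labelled SARAWT. Human ZFYVE9, the transgene's gene, is listed in 4 libraries only and stood at 843 and 188 CPM in the libraries labelled SARAWT PBS 1 and 2 and at 87.8 and 113 CPM in those labelled SARAWT bleomycin 1 and 2. Mouse Zfyve9 stood at 621 CPM in the library labelled SARAWT PBS 3, against 26.0 and 11.9 CPM in those labelled SARAWT PBS 1 and 2, 7.75 to 9.39 CPM in those labelled SARAWT bleomycin and 314 and 224 CPM in the SARATg libraries. In kidney it stood at 164 CPM in the library labelled SARAWT aristolochic acid 1 and at 20.6 CPM in the library labelled SARATg aristolochic acid 1. SARAWT and SARATg below therefore name libraries as labelled. The skin SARAWT libraries numbered 1 and 2 differed from those numbered 3 in the software version and gene list of the files and in Xist, which was high in numbers 1 and 2 while Y-linked genes were read in number 3. Among kidney libraries Xist was high in SARAWT vehicle 2 (1411 CPM) and in the library labelled SARATg aristolochic acid 1 (1357 CPM) and under 1 CPM in the other 7. Of the barcodes in SARAWT PBS 1 and 2 and bleomycin 1 and 2, 7.38%, 55.5%, 17.6% and 22.1% also occurred in another library, against 0.594% to 0.824% in the other skin libraries.

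The members fall into a few gene neighbourhoods (GRCm38, whole gene bodies). Dcn (ENSMUSG00000019929, chr10:97479609-97518143) and Lum (ENSMUSG00000036446, chr10:97565128-97572703) lie 46.98 kb apart on the plus strand. Aspn (ENSMUSG00000021388, chr13:49544443-49567565) and Ogn (ENSMUSG00000021390, chr13:49608046-49624501) share the plus strand of chromosome 13 with 2 further family genes, Ecm2 upstream of Aspn and Omd between them, at gaps of 11.65, 14.9 and 15.22 kb. Prelp (ENSMUSG00000041577, chr1:133910304-133921414, minus strand) and Fmod (ENSMUSG00000041559, chr1:134037254-134048277, plus strand) lie 115.8 kb apart. Podn (ENSMUSG00000028600, chr4:108014791-108096445, minus strand) and Bgn (ENSMUSG00000031375, chrX:73483602-73495933, plus strand) stand alone, and Bgn is X-linked.

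The RefSeq promoter table (GRCm38.p6, 250 bases before to 50 after each start) held 6 of the 8 members, and Dcn and Lum were not among them. The promoters of Ogn, Aspn and Podn, the 3 members that fell in stromal cells in the paired comparison given further on, and of Bgn, which did not, are shown so that a reader can compare them. Capitals mark matches, on either strand, to TATAAA or CATTCC in the first pair and to GGGCGG in the second pair.
Ogn, chr13:49607765-49608064, plus strand: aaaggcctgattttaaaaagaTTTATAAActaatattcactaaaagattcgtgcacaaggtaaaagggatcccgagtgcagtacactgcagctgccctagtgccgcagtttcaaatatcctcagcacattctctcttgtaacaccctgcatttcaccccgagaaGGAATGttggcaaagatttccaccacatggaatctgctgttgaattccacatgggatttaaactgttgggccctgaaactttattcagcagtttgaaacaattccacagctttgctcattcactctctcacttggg
Aspn, chr13:49544193-49544492, plus strand: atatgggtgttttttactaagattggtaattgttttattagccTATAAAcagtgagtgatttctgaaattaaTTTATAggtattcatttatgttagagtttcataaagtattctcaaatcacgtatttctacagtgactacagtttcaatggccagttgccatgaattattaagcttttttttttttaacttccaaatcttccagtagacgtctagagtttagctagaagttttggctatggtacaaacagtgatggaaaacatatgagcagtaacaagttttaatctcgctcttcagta
Podn, chr4:108031905-108032204, minus strand: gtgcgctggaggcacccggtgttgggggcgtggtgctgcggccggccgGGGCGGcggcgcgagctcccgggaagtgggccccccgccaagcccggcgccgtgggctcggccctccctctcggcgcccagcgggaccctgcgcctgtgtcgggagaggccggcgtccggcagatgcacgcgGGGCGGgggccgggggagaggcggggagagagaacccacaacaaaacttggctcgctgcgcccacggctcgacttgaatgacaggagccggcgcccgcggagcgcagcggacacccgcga
Bgn, chrX:73483351-73483650, plus strand: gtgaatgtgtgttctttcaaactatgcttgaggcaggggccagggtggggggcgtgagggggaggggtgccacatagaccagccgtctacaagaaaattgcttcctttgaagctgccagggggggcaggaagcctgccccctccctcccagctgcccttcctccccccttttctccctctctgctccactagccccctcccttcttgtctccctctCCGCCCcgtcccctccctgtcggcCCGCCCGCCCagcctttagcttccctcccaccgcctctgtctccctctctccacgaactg

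Ogn and Aspn, the chromosome 13 neighbours, have AT-rich windows of 42.3% and 31% GC, each with 2 TATAAA matches far upstream of the start (first bases at -229 and -227, overlapping, in Ogn, and at -207 and -178 in Aspn). Ogn alone of the 6 holds CATTCC, the core bound by TEAD factors, at -86. Podn and Bgn have GC-rich windows of 77% and 63.7% GC with GGGCGG, the core bound by Sp1, at -202 and -70 in Podn and at -34, -10 and -6 in Bgn, where the last 2 overlap. TGANTCA, the AP-1 core, was in none of the 6, and the windows of Prelp and Fmod and the other listed start of Podn held none of the 4 motifs. Of all 32851 promoters in the table, 13.6% hold TATAAA, 14.7% CATTCC, 35.7% GGGCGG and 7.81% TGANTCA, so these matches are common and are given as a description.

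In skin most UMIs of the family lay in stromal cells. By CPM, Aspn and Fmod had their highest mean in mural cells, for Fmod on only 18 mural UMIs in all. Their stromal and mural ranges overlapped, and those of Bgn, Prelp and Podn did as well. Of all UMIs read in kept skin cells, stromal cells held 96.4% for Dcn (430252 of 446282), 97.1% for Lum, 94.6% for Aspn, 93.8% for Ogn, 92.2% for Podn, 91.8% for Bgn, 89.3% for Prelp and 86.8% for Fmod. Mixed cells held 2.13% to 10.2% and were the largest class outside stromal cells for every member but Podn. For Podn leukocytes held 5.26% (345 UMIs) and mixed cells 2.13%. The classes differ in cell number, so the levels as CPM give the order of the classes.

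**Figure D1:**
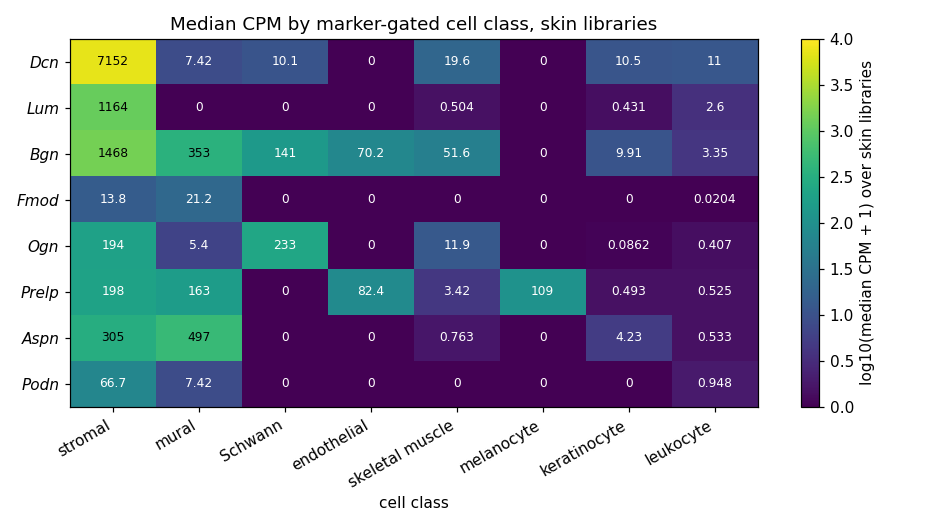
Median CPM of the 8 members (rows) in each gated skin cell class (columns), over the libraries with at least 10 cells of the class; colour is log10(median CPM + 1) and the printed number is the median. Dcn and Lum are bright in stromal cells alone, Aspn and Fmod have their highest median in mural cells (497 and 21.2 CPM), and Ogn has its highest in Schwann cells (233 CPM, against 194 CPM in stromal cells). Mural Fmod rests on 18 UMIs in all.

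Dcn and Lum separated stromal cells from every other class. Dcn averaged 7297 ± 4167 CPM (SD) over the 8 skin libraries in stromal cells, from 2922 to 12478, and the next class, keratinocytes, averaged 40.1 CPM with no overlap. Lum, which spaces collagen fibrils, averaged 1411 ± 704 CPM in stromal cells and 16.0 CPM in the next class, mural cells, again with no overlap. The mural Lum value rested on 7 UMIs in 1 library, SARAWT bleomycin 3, and on 0 UMIs in the others.

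Aspn, a calcium-binding member that competes with decorin on collagen, had its higher mean in mural cells. It averaged 554 ± 96.4 CPM in mural cells and 384 ± 304 CPM in stromal cells, ranges that overlapped, and 9.62 CPM in keratinocytes, which did not overlap with stromal cells. Fmod, which binds collagen near the cross-linking sites, averaged 26.5 CPM in mural and 23.3 CPM in stromal cells, also overlapping, and 0.932 CPM in keratinocytes. Skin mural cells held 18 Fmod UMIs in all, against 537 of Aspn, and the mural Fmod level ranged from 0 to 52.8 CPM, so its order is uncertain. Aspn and Fmod, like Prelp below, were thus read at the same order of level in both mesenchymal classes.

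The other members had a longer tail of classes. Bgn, the X-linked proteoglycan that also acts as a Toll-like receptor ligand, averaged 1574 ± 377 CPM in stromal and 659 ± 600 CPM in mural cells, with overlap, then 231 CPM in Schwann cells and 93.0 CPM in endothelial cells. Prelp, a heparin-binding anchor between matrix and basement membrane, averaged 199 ± 64.4 CPM in stromal, 147 CPM in mural, 106 CPM in endothelial (15.1 to 275) and 93.0 CPM in melanocyte-gated cells (39.0 to 131, 3 libraries), with overlap between neighbouring classes. Ogn averaged 338 ± 376 CPM in stromal cells and 209 ± 139 CPM in Schwann cells (5 libraries, 64.9 to 384), with overlap, and by the median Schwann cells were the higher class. Podn, a member known to restrain smooth muscle growth, averaged 83.8 ± 76.4 CPM in stromal cells and 9.53 CPM in mural cells, ranges that overlapped (10.0 to 239 and 0 to 35.2 CPM).

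Stromal and mural sums from the same library were compared in the 7 skin libraries with at least 10 cells of both, with library as a block. Of all 9140 genes tested, 37.5% passed an adjusted p of 0.05 and 23.0% were higher in stromal cells. Among members, 6 of 8 were higher in stromal cells by edgeR's quasi-likelihood test. The log2 difference was 9.54 ± 0.55 (SE, adjusted p = 1.79e-11) for Dcn, 7.73 ± 0.67 (7.46e-09) for Lum and 5.43 ± 0.44 (3.24e-09) for Ogn. Podn followed at 3.49 ± 0.68 (adjusted p = 0.00030), Bgn at 1.77 ± 0.31 (0.00011) and Prelp at 0.85 ± 0.28 (0.019). Prelp was the call lost without SARATg PBS 1 (adjusted p = 0.068), without SARAWT PBS 3 (0.088) and without TMM scaling (0.083). Aspn differed by -0.48 ± 0.32 (adjusted p = 0.26) and Fmod by 0.03 ± 0.50 (0.98), with 95% intervals of -1.14 to 0.18 and -1.01 to 1.07. The median difference was 2.63 over the members and 0.18 over all genes tested. Mural cells were few, 10 to 46 per library, and the summed stromal markers in them ranged from 242 to 1919 CPM. Whether that stromal signal entered the mural levels of the members was not tested.

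The gate also split stromal cells by 4 short gene lists, and the members differed in which subset was highest, although every pair of neighbours in the order overlapped. Ogn averaged 1399 CPM in Pi16/Dpp4 cells (5 libraries, 745 to 2298), 462 CPM in stromal cells outside the lists, 319 CPM in Cyp2f2/Mmp3 cells, 90.5 CPM in Cthrc1/Postn cells and 30.4 CPM in Crabp1/Corin cells. These means cover different libraries, since 4 of the 5 Pi16/Dpp4 libraries are PBS and 3 of the 5 Crabp1/Corin libraries are bleomycin, while the other subsets have all 8. Dcn averaged 16732 CPM in Pi16/Dpp4 (9423 to 38473, median 11585) and 14670 CPM in Cyp2f2/Mmp3 cells (10199 to 20805, median 14087). It averaged 2546 CPM in Cthrc1/Postn cells (984 to 4840) and 1304 CPM in Crabp1/Corin cells (33.4 to 3194). Cthrc1 and Postn are genes of matrix-producing, activated fibroblasts, and Pi16 and Dpp4 mark fibroblasts of the outer, adventitia-like layers.

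Lum and Podn peaked in Cyp2f2/Mmp3 cells, at 3082 and 166 CPM, and were at 775 and 25.5 CPM in Cthrc1/Postn cells. Bgn averaged 1912 CPM in Cyp2f2/Mmp3, 1804 CPM in Cthrc1/Postn and 777 CPM in Pi16/Dpp4 cells (565 to 1130), close to the 826 CPM of Crabp1/Corin cells (552 to 1289). Aspn averaged 447 to 477 CPM in 4 of the 5 subsets and 280 CPM in Crabp1/Corin cells. Its Cthrc1/Postn mean of 464 CPM was 272 CPM without SARATg PBS 1, and the median there was 128 CPM, against 362 to 498 CPM in the 3 other subsets of that range. In a sum over all stromal cells, the make-up of the class and the level within each subset cannot be told apart, so subset values stand beside the bleomycin comparison.

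**Figure D2:**
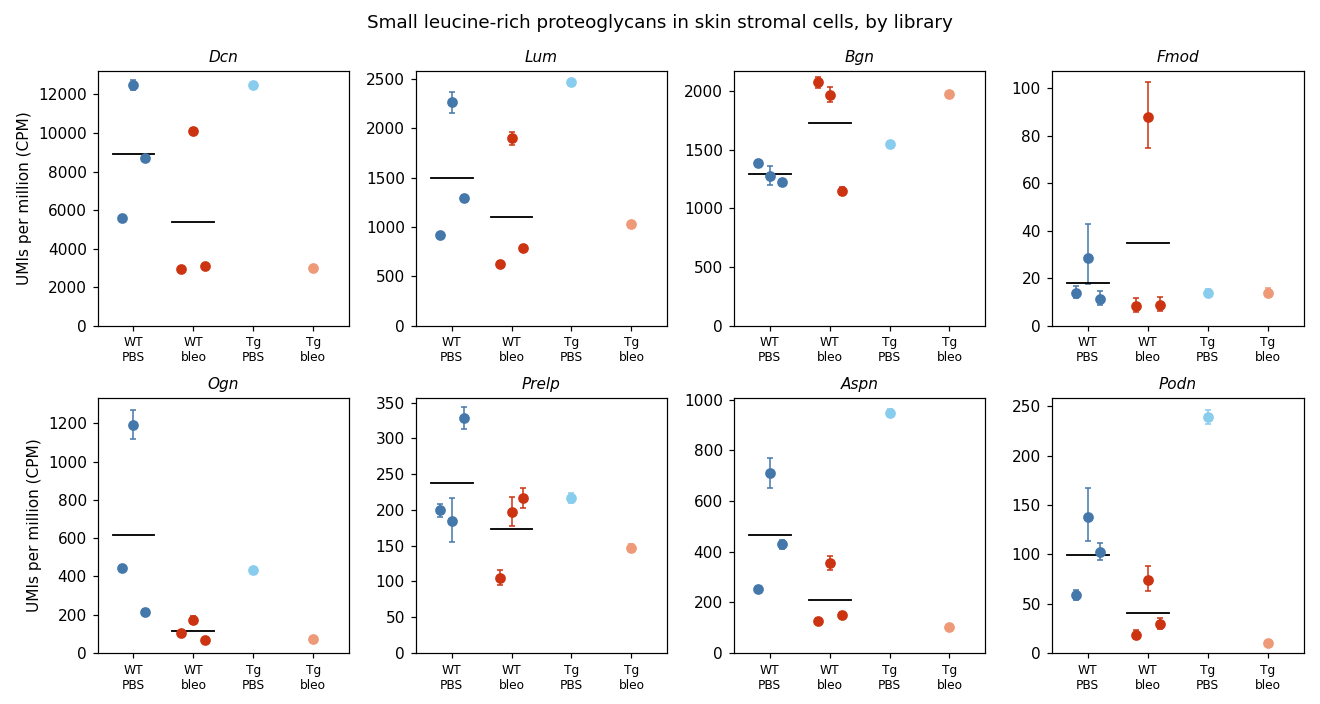
CPM of each member in gated stromal cells by library. WT is SARAWT and Tg is SARATg, error bars are exact 95% Poisson intervals that cover counting error only, and horizontal black lines are group means; Ogn is the member whose 3 SARAWT bleomycin libraries all lie under the 3 SARAWT PBS libraries.

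The comparison of SARAWT bleomycin with SARAWT PBS asks how the family moved in fibrosing skin. In stromal cells Ogn was lower in every bleomycin library and Podn and Aspn in most, and the means of Bgn and Fmod were not lower. Dcn and Lum overlapped between groups but were lower in each same-numbered pair. These pairs were taken from the same counts, and the share of all genes lower in each pair was not computed. Stromal cells numbered 705, 168 and 368 in the PBS libraries and 194, 225 and 227 in the bleomycin libraries. Cells that scored highest as stromal but were left out as mixed numbered 34, 23 and 26 after PBS and 51, 38 and 139 after bleomycin.

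Ogn was at 444, 1192 and 215 CPM in the PBS libraries and 102, 173 and 69.9 CPM in the bleomycin libraries, from 301 to 4123 UMIs per library. The groups did not overlap, and the PBS mean of 617 CPM was 5.36-fold above the bleomycin mean of 115 CPM, or 2.86-fold without SARAWT PBS 2. Ogn was the only one of 8 members whose groups did not overlap, where 16.4% of the genes averaging 5 CPM or more lay wholly lower after bleomycin and 17.6% wholly higher.

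Podn was at 58.9, 138 and 102 CPM after PBS and 18.0, 74.5 and 29.5 CPM after bleomycin, with bleomycin library 2 inside the PBS range. Aspn was at 254, 709 and 429 CPM after PBS and 126, 355 and 148 CPM after bleomycin, and again only bleomycin 2 reached into the PBS range. In each same-numbered pair both members were lower after bleomycin.

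Dcn was at 5596, 12478 and 8709 CPM after PBS and 2922, 10089 and 3086 CPM after bleomycin. Lum was at 924, 2262 and 1294 CPM after PBS and 627, 1897 and 787 CPM after bleomycin. For both, libraries numbered 2 were the highest of their group and the groups overlapped, and in each same-numbered pair both were lower after bleomycin.

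Prelp was at 199, 184 and 328 CPM after PBS and 105, 197 and 216 CPM after bleomycin. Bgn was at 1385, 1276 and 1220 CPM after PBS and 2073, 1969 and 1145 CPM after bleomycin, with bleomycin 1 and 2 above all PBS libraries and bleomycin 3 below them. Fmod was low throughout, at 14, 28.4 and 11.2 CPM after PBS and 8.30, 87.9 and 8.83 CPM after bleomycin, and its higher bleomycin mean came from library 2 alone.

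With edgeR's quasi-likelihood test, 0 of the 8 members passed an adjusted p of 0.05, where 7.97% of the 11735 genes tested did. The log2 change was -2.42 ± 0.61 (SE, adjusted p = 0.053) for Ogn, -1.34 ± 0.54 (0.15) for Podn and -1.17 ± 0.49 (0.17) for Aspn, of which all 3 had an unadjusted p under 0.05. It was -0.77 ± 0.52 (adjusted p = 0.37) for Dcn, -0.50 ± 0.35 (0.39) for Prelp and -0.46 ± 0.47 (0.56) for Lum. Over all alternatives Dcn ranged from -1.55 to 3.14 and Lum from -1.055 to 4.68, the highest of each in Crabp1/Corin cells with 2 libraries a group. Bgn changed by 0.42 ± 0.24 (adjusted p = 0.29) and Fmod by 1.04 ± 0.92 (0.50). DESeq2 called 1 member, Ogn (adjusted p = 0.025), where it called 11.0% of genes.

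The labels state no pairing of libraries. Same replicate numbers were taken as pairs from the correlation of deviations in these same counts, so the blocked fit is no independent support. With the number as a block 3 members fell, where 13.4% of 12347 genes passed and 6.84% were lower. Ogn changed by -2.17 ± 0.23 (SE, adjusted p = 0.0091), Podn by -1.48 ± 0.23 (0.018) and Aspn by -1.18 ± 0.19 (0.020). Dcn at -0.92 ± 0.25 (adjusted p = 0.060) and Lum at -0.51 ± 0.15 (0.077) did not pass, nor did Prelp (-0.50), Bgn (0.37) and Fmod (0.15). The median change of the members was -0.63 without the block and -0.71 with it, and the medians of all genes tested were -0.02 and -0.03. Without shared barcodes the member median was 0.08 in the unblocked and -0.15 in the blocked fit. Over the left-out libraries it ranged from -1.30 (without SARAWT bleomycin 2) to -0.35 (without SARAWT bleomycin 1). Within the libraries numbered 1 and 2, which share a gene list and software version, the same 3 members passed in the blocked fit, at -2.39 for Ogn, -1.24 for Podn and -0.94 for Aspn, where 8.31% of genes did. These libraries are part of the same fit and hold the most shared barcodes. With 2 libraries a group and the block, this fit has few residual degrees of freedom and is no separate check. The pair numbered 3 gives 1 library a group and no test.

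**Figure D3:**
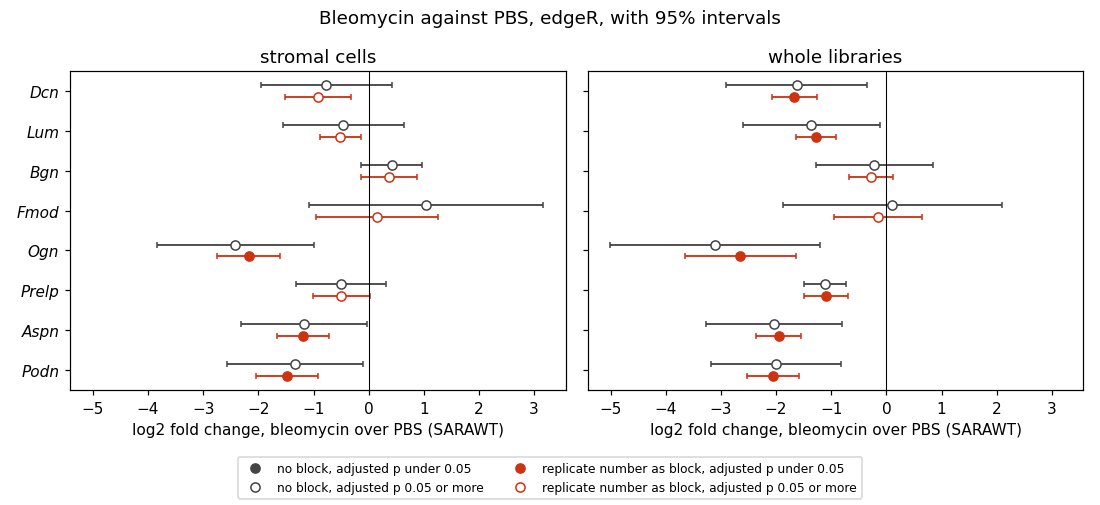
Log2 fold change of the 8 members, SARAWT bleomycin over SARAWT PBS, in stromal cells (left) and whole skin libraries (right) by edgeR, without (grey) and with (red) the replicate number as a block, with 95% intervals. Filled points have an adjusted p under 0.05; Ogn, Podn and Aspn pass in stromal cells and 6 members in whole libraries, with the block in each case.

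Which members passed depended on 3 features of the libraries. Without the barcodes that occur in another library, 2.81% of genes passed in the blocked fit and 0.502% without the block. Ogn then changed by -1.67 in the blocked fit (adjusted p = 0.0090) and by -1.62 without the block (0.31), while Podn (-0.50 and -0.07) and Aspn (-0.82 and -0.72) passed in neither, and Dcn stood at -0.13 and 0.22 and Lum at 0.09 and 0.35. Without the library labelled SARAWT PBS 3, Ogn changed by -2.80 (adjusted p = 0.039) in the unblocked fit, where 3.68% of genes passed, and Podn (-1.23, 0.28) and Aspn (-1.17, 0.26) did not pass. Without SARAWT bleomycin 2, Podn passed at -2.03 (adjusted p = 0.0496) in the unblocked fit, where 5.43% of genes did.

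Schwann cell markers moved with the comparison. Their summed level over the 7 genes was 15.8, 33.5 and 9.71 CPM in the stromal cells of the PBS libraries and 130, 123 and 181 CPM in those of the bleomycin libraries, while the median over cells was 0 in every library. In stromal cells without any Schwann marker UMI, the blocked fit gave -1.64 for Ogn and -1.26 for Podn, both past the threshold, and -0.91 for Aspn, which did not pass, where 4.48% of genes passed. The mural list was at 1357, 429 and 276 CPM after PBS and 1730, 1437 and 939 CPM after bleomycin, and its part in the member values was not tested.

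Of these 5 divisions, 3 held at least 10 cells in all 6 SARAWT libraries, the Cthrc1/Postn cells, the Cyp2f2/Mmp3 cells and the cells outside the lists. Cthrc1/Postn cells numbered 226, 44 and 75 after PBS and 82, 59 and 128 after bleomycin. In them Aspn was at 146, 953 and 488 CPM after PBS and 95.7, 57.0 and 56.8 CPM after bleomycin, without overlap and 7.58-fold apart in the means, or 4.54-fold without SARAWT PBS 2. Podn was at 14.3, 66.7 and 28.4 CPM after PBS and 4.91, 5.70 and 8.82 CPM after bleomycin, 5.63-fold apart, or 3.30-fold without SARAWT PBS 2.

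Ogn in Cthrc1/Postn cells was at 51.8, 133 and 107 CPM after PBS and 45.4, 35.6 and 42.0 CPM after bleomycin, 2.38-fold apart. These 3 of 8 members were wholly lower after bleomycin, against 14.2% of such genes. By edgeR's test Aspn passed, at -2.81 ± 0.57 (SE, adjusted p = 0.018), where 8.55% of all genes did, and with the block Aspn (-2.54) and Podn (-1.97) passed, where 9.40% did. The Schwann marker Sox10 moved with these calls, at 0.621, 0 and 0 CPM in the Cthrc1/Postn cells after PBS and 35.2, 32.8 and 28.6 CPM after bleomycin. In the Cthrc1/Postn cells without any Schwann marker UMI no member passed, with Aspn at -2.15 ± 0.59 (SE, adjusted p = 0.083), Podn at -1.29 (0.30) and Ogn at -0.62 (0.49), where 2.99% of genes did. With the block there, Aspn stood at -1.90 (adjusted p = 0.13) and Podn at -1.28 (0.17), where 4.35% of genes passed. The name is that of the list, and in SARAWT PBS 3 Cthrc1 itself stood at 76.5 CPM in this subset, against 81.2 CPM in Cyp2f2/Mmp3 cells and 118 CPM in the cells outside the lists, as in SARAWT bleomycin 3 it stood at 80.4 CPM here and 85.7 CPM outside the lists.

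In the stromal cells outside the 4 lists, Ogn was at 875, 1231 and 310 CPM after PBS and 220, 184 and 98.4 CPM after bleomycin, and Podn at 134, 152 and 91.1 CPM against 45.1, 70.7 and 19.7 CPM. Prelp was at 236, 241 and 368 CPM after PBS and 105, 219 and 131 CPM after bleomycin. The groups of these 3 members did not overlap, 4.81-fold, 2.78-fold and 1.86-fold apart, against 15.9% of genes wholly lower. Ogn (-2.23 ± 0.49, adjusted p = 0.024) and Podn (-1.45 ± 0.39, 0.044) passed edgeR's test there, where 12.3% of all genes did, and Aspn did not (-0.65 ± 0.44). These cells are those that no list claimed, and their own markers moved with the comparison. Pi16 stood at 1660, 1030 and 278 CPM after PBS and 57.5, 234 and 11.6 CPM after bleomycin, Crabp1 at 66.0, 71.1 and 63.5 CPM against 1967, 722 and 968 CPM, and Sox10 at 0 in each against 2.25, 2.72 and 3.47 CPM. The part of this shift in the member values was not tested. Bgn was higher in 2 of the 3 same-numbered pairs, at 1570, 1513 and 1327 CPM after PBS and 3062, 2482 and 1250 CPM after bleomycin.

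In Cyp2f2/Mmp3 cells, 10 to 125 per library, the SARAWT groups of these members overlapped. Ogn was at 624, 788 and 135 CPM after PBS and 229, 230 and 191 CPM after bleomycin, and Podn at 178, 211 and 170 CPM against 40.0, 222 and 158 CPM. Aspn was at 398, 528 and 407 CPM after PBS and 212, 328 and 568 CPM after bleomycin. None of the 7 members tested there passed edgeR's test, and neither did any of the 4127 genes (percent called 0), 281 of which were under 0.05 before adjustment, and DESeq2 was not run on this subset.

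**Figure D4:**
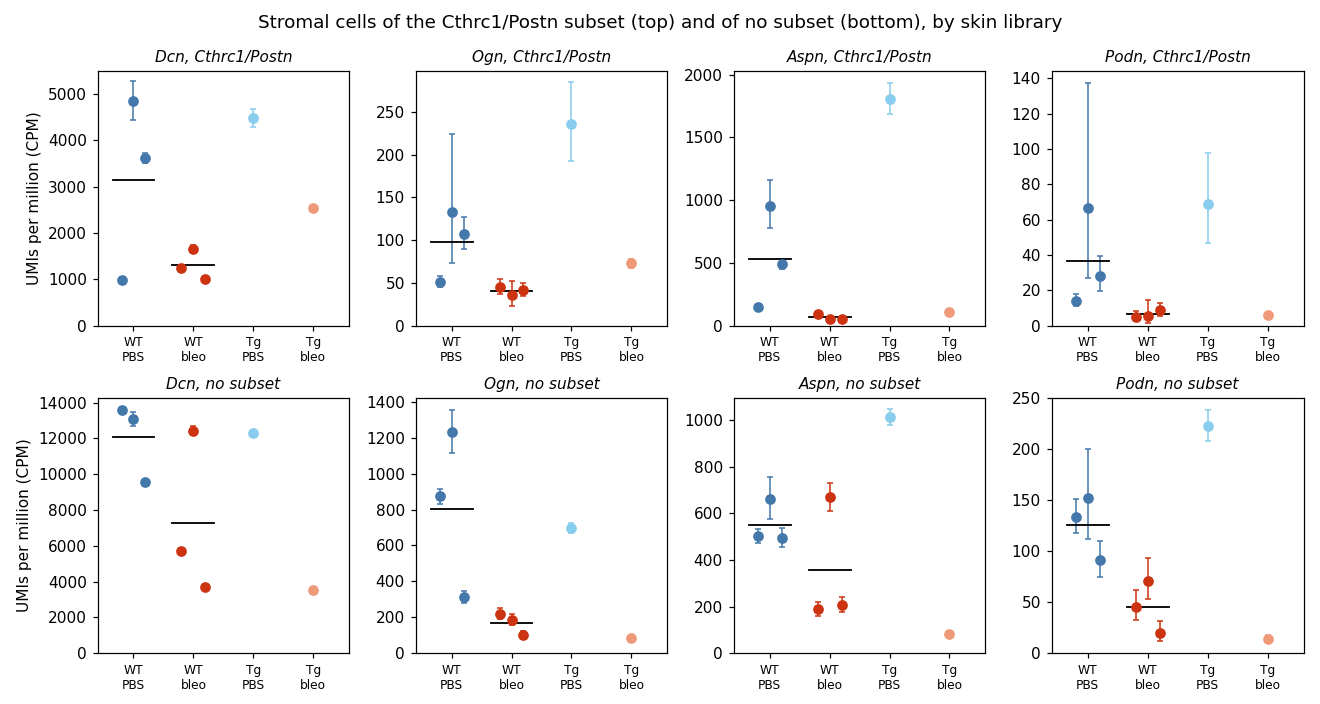
CPM of Dcn, Ogn, Aspn and Podn by skin library in Cthrc1/Postn stromal cells (top) and in stromal cells outside the 4 lists (bottom). WT is SARAWT and Tg is SARATg, points are libraries, lines are group means and error bars are exact 95% Poisson intervals for counting error; Aspn in Cthrc1/Postn cells and Ogn and Podn in both rows separate the SARAWT groups.

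The make-up of the stromal class was compared in a design whose smallest exact permutation p is 0.1. Pi16/Dpp4 cells, the subset with the highest Ogn, were 15.9%, 10.7% and 10.1% of stromal cells after PBS and 4.64%, 9.78% and 1.76% after bleomycin, groups that did not overlap (exact permutation p = 0.1). Cthrc1/Postn cells averaged 26.2% and 41.6% (exact permutation p = 0.2) and Crabp1/Corin cells 7.68% and 4.08% (exact permutation p = 0.3), the 2 subsets with the lowest Dcn. The part of these shares in the stromal Ogn values was not tested.

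The share of stromal cells with at least 1 UMI, after thinning each cell to 1000 UMIs, moved in the same direction as the sums for most members. Ogn was found in 27.4% ± 13.9 (SD, n = 3) of PBS and 15.2% ± 9.80 of bleomycin stromal cells (39.4% and 30.3% unthinned), with overlap between libraries, against 0.0376% and 0.0287% of leukocytes (0.525% and 0.193% unthinned). Dcn was found in 78.6% ± 14.95 and 58.2% ± 14.6 of stromal cells (80.2% and 67.0% unthinned), again with overlap, against 1.39% and 0.667% of leukocytes (7.98% and 3.52% unthinned). Bgn was found in 56.7% ± 2.48 and 61.6% ± 8.20 of stromal cells (77.5% and 71.9% unthinned), against 0.339% and 0.372% of leukocytes. The libraries' median depth per cell ranged from 1040.5 to 16089 UMIs in stromal cells and from 1553 to 9723 UMIs in leukocytes. Thinning left out 183 of 1241 PBS and 169 of 646 bleomycin stromal cells with fewer UMIs.

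Over whole libraries 5 members lay wholly lower after bleomycin, and there fewer stromal cells and less RNA per cell cannot be told apart. Stromal cells made up 17.3%, 21.5% and 7.94% of kept cells after PBS and 9.01%, 10.4% and 3.47% after bleomycin, a difference in means of -7.96 percentage points (exact permutation test, two-sided, p = 0.3). The share was lower after bleomycin in 3 of 3 same-numbered pairs (exact sign permutation of the pairs, two-sided, p = 0.25, the smallest that 3 pairs allow). Without shared barcodes it was 11.0% ± 3.16 (SD, n = 3) after PBS and 3.62% ± 0.511 after bleomycin (exact permutation p = 0.1, the smallest possible). Of the cells outside the leukocyte gate, stromal cells made up 45.9% ± 17.9 (SD, n = 3) after PBS and 36.9% ± 12.4 after bleomycin (exact permutation p = 0.5). Ogn was at 126, 285 and 25 CPM after PBS and 18.8, 18.0 and 7.70 CPM after bleomycin, without overlap and 9.79-fold apart, or 5.09-fold without SARAWT PBS 2. Aspn was at 75.0, 180 and 52.4 CPM after PBS and 20.4, 33.0 and 13.1 CPM after bleomycin, 4.63-fold apart, or 2.88-fold without SARAWT PBS 2.

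Podn was at 18.2, 32.7 and 12.2 CPM after PBS and 3.14, 7.69 and 3.06 CPM after bleomycin, and Dcn at 1579, 2996 and 989 CPM against 460, 898 and 255 CPM. Prelp was at 59.3, 49.2 and 39.7 CPM after PBS and 19.2, 20.5 and 22.1 CPM after bleomycin, the tightest groups of any member. The groups of 5 members (Dcn, Ogn, Prelp, Aspn, Podn) thus did not overlap, against 16.3% of genes wholly lower, and those of Lum, Bgn and Fmod did.

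By edgeR's test without the block 0 members and 0 of all 15334 genes (percent called 0) passed an adjusted p of 0.05, while 2802 genes were under 0.05 before adjustment. The DESeq2 fit called 1350 genes (8.16%), 5 of them members. In edgeR's unblocked fit the member nearest the threshold was Prelp at -1.11 ± 0.16 (SE, adjusted p = 0.052). Ogn (-3.11 ± 0.81), Aspn (-2.04 ± 0.52) and Podn (-2.0 ± 0.50) had adjusted p of 0.11 in that fit. For whole libraries the pairing is less clear, since bleomycin 2 correlated at 0.127 with PBS 2 and at 0.186 with PBS 1. With the replicate block 6 of 8 members fell, where 3.90% of 15959 genes passed and 2.72% were lower. These were Ogn (-2.65), Podn (-2.05), Aspn (-1.96), Dcn (-1.67), Lum (-1.27) and Prelp (-1.09), with adjusted p from 0.016 to 0.034, while Bgn (-0.27) and Fmod (-0.15) did not pass. In the blocked fits of numbers 1 and 2 alone and of cells without shared barcodes, no member passed, with Ogn at -3.16 and -2.66, and 0 and 0.0128% of genes did. The median change over the members was -1.49 without and -1.47 with the block, against 0.01 and 0.02 over all genes tested.

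In mural cells Aspn did not pass the test in either direction. It was at 467, 484 and 497 CPM after PBS and 655 and 495 CPM in the 2 bleomycin libraries with at least 10 mural cells, and SARAWT bleomycin 1, with 6 mural cells, was left out of the fit. The log2 change was 0.27 ± 0.31 (SE, adjusted p = 0.74), and -0.58 ± 0.68 (0.64) with mixed cells kept in the class. Bgn was at 312, 302 and 413 CPM after PBS and 353 and 1102 CPM after bleomycin, a change of 1.15 ± 0.45 (adjusted p = 0.31) that stood at -0.08 without SARAWT bleomycin 3. That library also had 1437 CPM of summed stromal markers in its mural cells, against 242 to 579 CPM in the PBS libraries, and the part of these in the Bgn value was not tested.

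Prelp in mural cells was at 163, 121 and 86.4 CPM after PBS and 202 and 176 CPM after bleomycin (0.68 ± 0.48, adjusted p = 0.57). Of 1268 genes tested in mural cells 0.0789% passed and none of the 3 members tested did. The other 5 members had at most 7 UMIs in any SARAWT mural sum and were not tested. A difference between the mural and the stromal change of Aspn was not tested.

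In SARATg skin 1 PBS and 1 bleomycin library were sequenced, so their differences have no replicate check, and the intervals cover counting error only. In stromal cells (971 and 534 cells) Podn was at 239 CPM (95% interval 232 to 246) after PBS and 10.0 CPM (8.62 to 11.6) after bleomycin, 23.8-fold apart. Aspn was at 949 CPM (935 to 963) and 101 CPM (96.7 to 106), 9.37-fold apart. Ogn was at 436 CPM (426 to 446) and 75.0 CPM (71.0 to 79.2), 5.81-fold apart.

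Dcn was at 12477 CPM after PBS and 3016 CPM after bleomycin in SARATg stromal cells, 4.14-fold apart, and Lum at 2466 and 1035 CPM, 2.38-fold apart. At least a 2-fold lower level was thus seen in 5 of 8 members, against 9.93% of the genes averaging 5 CPM or more, and at least a 2-fold higher level in 0 members, against 26.8%. Prelp was at 217 and 147 CPM, Bgn at 1550 and 1971 CPM and Fmod at 13.7 and 13.9 CPM. The 3 members furthest apart were Podn, Aspn and Ogn.

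The subsets differed between these 2 libraries as well. Cyp2f2/Mmp3 cells were 64.0% of stromal cells in the SARATg PBS library (621 cells) and 2.43% in the SARATg bleomycin library (13 cells), and Cthrc1/Postn cells 3.09% (30 cells) and 56.9% (304 cells). Within Cthrc1/Postn cells Aspn was at 1807 and 110 CPM, Podn at 68.9 and 6.12 CPM and Ogn at 236 and 72.9 CPM. These cells also differed in the markers of other subsets, with Pi16 at 322 and 0.922 CPM, Mmp3 at 156 and 5.19 CPM and Crabp1 at 37.8 and 567 CPM. Within the stromal cells outside the lists Aspn was at 1015 and 80.5 CPM, Podn at 223 and 13.6 CPM and Ogn at 697 and 83.2 CPM. Those cells differed as well in Pi16, at 468 and 4.31 CPM, and in Crabp1, at 32.7 and 1323 CPM. Dcn in Cyp2f2/Mmp3 cells was at 12776 and 14666 CPM, with no lower value after bleomycin.

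Between genotypes, the SARATg PBS library lay above all 3 SARAWT PBS libraries in stromal cells for Lum, Bgn, Aspn and Podn, and the SARATg bleomycin library lay below all 3 SARAWT bleomycin libraries for Aspn and Podn. These are values of 1 SARATg library a group, and the share of all genes lying outside the SARAWT range in this way was not computed. Cyp2f2/Mmp3 cells, the subset with the highest mean Lum, Bgn and Podn, were 64.0% of stromal cells in the SARATg PBS library. In the SARAWT PBS libraries they were 5.11%, 8.93% and 34.0%, and the part of this in the member values was not tested. Both SARATg libraries matched only the SARAWT libraries numbered 3 in software version, gene list and reads of Y-linked genes. Zfyve9 was high in SARAWT PBS 3 as well, and human ZFYVE9 was read in SARAWT PBS 1 and 2 and bleomycin 1 and 2. Whether the bleomycin change differed between genotypes was not tested.

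The partners of the family were followed by lists that, like the members, were chosen with earlier results of these data known. They were read only in the fits of all stromal cells without and with the block. The unblocked fit called 935 genes, against 54 without shared barcodes and 58 without Schwann marker UMIs. Whether the list calls hold there was not tested. Of the other small leucine-rich proteoglycans, 3 of 9 could be tested in SARAWT stromal cells and 1 fell: Omd, the chromosome 13 neighbour of Ogn and Aspn, at -2.51 ± 0.45 (SE, adjusted p = 0.024), where 3.80% of all genes tested were lower and 4.17% higher. With the block 2 of 4 fell, Omd (-2.57) and Ecm2 (-2.53), where 6.84% of genes were lower and 6.52% higher. With Aspn and Ogn these are the 4 family genes of the chromosome 13 cluster, grouped here after their values were seen. The list median was -2.51 without the block.

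Fibril collagens and their processing enzymes were mixed. Against the same 3.80% lower and 4.17% higher over all genes, 4 of 16 tested fell, Col14a1 (-2.76), a fibril-surface collagen, Col1a2 (-1.36) and Col1a1 (-1.27), the chains of type I collagen, and Bmp1 (-0.77), the procollagen C-proteinase, which also removes the propeptides of several members. Adamts14, a procollagen N-proteinase, rose by 1.26. Col1a1 and Col1a2, and of the same list Col3a1 and Loxl1, are markers of the stromal gate. With the block, against 6.84% lower and 6.52% higher over all genes, 6 fell and 3 rose, the latter being Adamts14, Loxl2 (0.88) and Col12a1 (0.85). The list median was -0.44.

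The counts of the other 3 lists stand against the same shares over all genes. Of the enzymes that build the glycosaminoglycan chains of the family, 22 were tested, with 1 higher (Chst2, a keratan sulfate sulfotransferase, 1.23), 1 lower (Dse, the dermatan sulfate epimerase, -0.81) and a median of -0.14. Of the receptors and ligands of decorin and biglycan 1 of 11 fell, Kdr (-4.51), the VEGF receptor, which is also an endothelial gate marker, and with the block also Egfr (-1.29). Of the proteases that cleave family members 2 of 6 fell, Adamts1 (-1.38) and Adamts5 (-1.33), and none rose, with a median of -1.23.

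Between stromal and mural cells, Omd (3.96) and Ecm2 (1.64) were higher in stromal cells, 2 of 2 tested. Over all genes tested, 23.0% were higher in stromal cells and 37.5% passed in either direction. The collagen list was higher in 15 of 16 genes and the chain-building list in 9 of 15, with 1 lower (Chst15, -2.11). Col1a1, Col1a2, Col3a1 and Loxl1 of the collagen list are markers of the stromal gate. Their direction here was set by the gate, so they add nothing to that count. The proteases split, with Mmp2, Mmp3, Mmp14 and Adamts5 higher in stromal cells and Adamts4 (-2.76) and Adamts1 (-1.89) higher in mural cells.

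In kidney the family was scarce, and few sorted cells passed the stromal gate. Stromal cells numbered 1, 5 and 0 in the SARAWT vehicle libraries, 0, 1 and 2 after aristolochic acid, 0 and 40 in the SARATg vehicle libraries and 4 in the library labelled SARATg aristolochic acid 1. The 40 cells of SARATg vehicle 2 were the only stromal sum over 10 cells, and they held 29391 CPM of Dcn (7429 UMIs), 2706 CPM of Ogn, 237 CPM of Prelp, 190 CPM of Bgn and 146 CPM of Lum. These 40 cells of 1 library thus read Dcn and Ogn at a high level, as skin stromal cells did. Their Bgn lay under the kidney means of mural (341 CPM) and endothelial cells (221 CPM, with overlap). The 4 cells of the library labelled SARATg aristolochic acid 1 held 5194 CPM of Bgn, 2305 CPM of Dcn and 34.4 CPM of Ogn. No test of treatment within kidney stromal cells was possible.

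**Figure D5:**
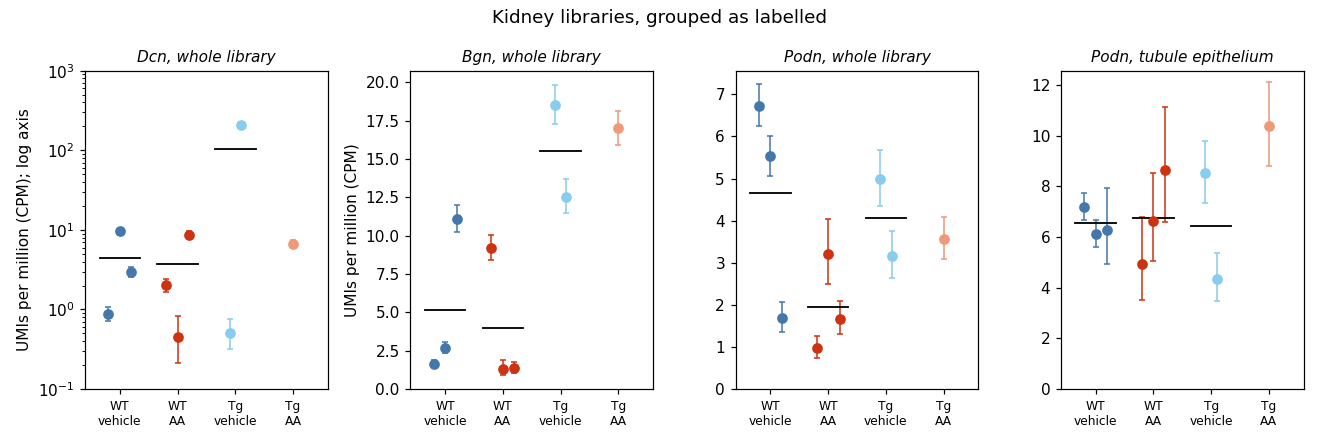
CPM of Dcn (log axis), Bgn and Podn in whole kidney libraries and of Podn in tubule epithelium. WT is SARAWT, Tg is SARATg and AA is aristolochic acid, as labelled, points are libraries, lines are group means and error bars are exact 95% Poisson intervals for counting error; SARATg vehicle 2 holds the highest Dcn, at 208 CPM, and both SARATg vehicle libraries lie above the SARAWT vehicle libraries for Bgn.

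Over whole kidney libraries Dcn was at 0.886, 9.55 and 2.98 CPM in SARAWT vehicle, 2.02, 0.445 and 8.75 CPM after aristolochic acid, 0.500 and 208 CPM in SARATg vehicle and 6.72 CPM in the library labelled SARATg aristolochic acid 1. Ogn was at 0.192, 2.77 and 0.628 CPM, then 0.622, 0.934 and 1.39 CPM, then 0.435 and 19.8 CPM, and 1.33 CPM. The highest values of both members came from SARATg vehicle 2, the library with 40 stromal cells.

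All 8 members had some kidney UMIs outside the stromal gate. Ogn had 180 UMIs in tubule epithelium and 54 in mural cells, where it averaged 237 CPM over 3 libraries (75.3 to 547), and Aspn averaged 73.9 CPM in the same mural sums (30.1 to 146) on 40 UMIs in all. Dcn had 438 UMIs in leukocytes and 1417 in mixed cells, and Prelp had 55 in endothelial cells, at a mean of 10.7 CPM. Endothelial cells held 45.9% of all 3997 kidney Bgn UMIs and stromal cells 9.26%, and the endothelial level was 231, 290 and 242 CPM in SARAWT vehicle, 254 and 198 CPM in SARATg vehicle and 347 and 34.5 CPM in the SARAWT aristolochic acid libraries 1 and 2, the latter from 20 cells, and 174 CPM in the library labelled SARATg aristolochic acid 1. Mural cells read Bgn at a like level, 304 to 407 CPM in the 3 libraries with at least 10 of them.

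Of the 2130 kidney Podn UMIs, 88.7% lay in tubule epithelium and 0.704% in stromal cells, which were far fewer. In tubule cells it was at 7.18, 6.12 and 6.29 CPM in SARAWT vehicle, 4.95, 6.62 and 8.66 CPM after aristolochic acid, 8.51 and 4.35 CPM in SARATg vehicle and 10.4 CPM in the library labelled SARATg aristolochic acid 1. The first 3 groups overlapped, the last library was the highest of the 9, and all lay under the 43.5 CPM of the single kidney stromal sum over 10 cells.

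Aristolochic acid moved no member past the threshold in SARAWT kidney libraries. Of 15977 genes tested 0 passed (percent called 0), 1553 were under 0.05 before adjustment and the DESeq2 fit called 54. Podn was at 6.73, 5.53 and 1.69 CPM after vehicle and 0.967, 3.20 and 1.66 CPM after aristolochic acid, a log2 change of -1.44 ± 0.71 (SE, edgeR adjusted p = 0.42). It passed without SARAWT vehicle 3 (-1.86, adjusted p = 0.047), where 33.3% of genes did, and in none of the other fits that left out a library. Vehicle 1 and 2 held 7220 and 7994 tubule cells against 607 to 1126 in the other 4 libraries of this comparison, and library sums cannot tell tubule cell number from level per cell.

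Bgn was at 1.65, 2.69 and 11.1 CPM in SARAWT vehicle and 9.21, 1.33 and 1.39 CPM after aristolochic acid (-0.44 ± 1.04, adjusted p = 0.82), and changed by -0.74 ± 1.18 (0.84) without the Xist-high SARAWT vehicle 2. Over all alternatives run its change ranged from -2.32 to 0.76, so its direction was not stable. The changes of Dcn (-0.30), Ogn (-0.33), Prelp (-1.02) and Fmod (-0.38) had adjusted p from 0.50 to 0.90, and each 95% interval reached over at least 1.5 log2 units to either side except for Prelp on its upper side, which ended at 0.84. The median change over the 6 members tested was -0.41, against -0.05 over all genes. Lum reached 1.12 CPM and Aspn 0.790 CPM at most in any kidney library.

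Between genotypes, Bgn was at 18.5 and 12.5 CPM in the SARATg vehicle and at 1.65, 2.69 and 11.1 CPM in the SARAWT vehicle libraries. These values did not overlap, and the share of all genes apart in this way was not computed. The means were 3.02-fold apart, or 7.15-fold without SARAWT vehicle 3, and the main fit did not call the difference. The log2 difference of Bgn was 1.53 ± 0.86 (SE, edgeR adjusted p = 0.999), and 0 of 16298 genes passed (percent called 0), 467 were under 0.05 before adjustment and the DESeq2 fit called 0.619%. Bgn passed in edgeR's fit without SARAWT vehicle 3 (adjusted p = 0.04), where 4.71% of genes did. Endothelial cells numbered 738 and 381 in the SARATg and 159, 113 and 159 in the SARAWT vehicle libraries, and the part of this in the Bgn values was not tested. In SARAWT vehicle 3, the SARAWT library with the most Bgn, 210 of its 617 UMIs lay in endothelial and 252 in mixed cells. Dcn (4.51 ± 2.08) and Ogn (3.04 ± 1.66) did not pass either, and without SARATg vehicle 2 they stood at -3.15 and -1.45.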

How the data were processed

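GFP+ cells of 17 mouse libraries were profiled with 10x 3′ v3 chemistry. The deposited values are whole-number UMI counts per gene and barcode, made by the authors with Cell Ranger. The submitters' processing notes name Cell Ranger 3.0.2, Seurat 2.3.4 and mm10, whereas the file headers name Cell Ranger 4.0.0 for the skin SARAWT libraries 1 and 2, 3.1.0 for the other skin libraries and 3.0.2 for kidney. The files held 31053 or 32286 genes, joined on 30406 shared identifiers. Of the 8 skin and 9 kidney libraries none was left out.

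Barcodes were kept if they held 200 genes or more and no more than 20% of their UMIs were mitochondrial. A cell entered the class with the highest marker score if it held at least 2 of its markers and the second score was at most 0.5 of the first. Cells with at least 2 markers of their best class and a second score over 0.5 of the first were called mixed and left out, which was the treatment of doublets. UMIs were summed per library and class with at least 10 cells and tested with edgeR 4.0.16 in R 4.3.3 (TMM factors after filterByExpr, two-sided quasi-likelihood F test, threshold 0.05 on p adjusted by Benjamini-Hochberg over all genes tested), with DESeq2 1.42.0 as an alternative. Shares of cells were compared by exact permutation over libraries (scipy 1.17.1), and intervals are exact Poisson or binomial at 95%, for counting error only. For detection, cells were thinned to 1000 UMIs. Scripts were tested on simulated counts.

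The replicate numbers were taken to pair the skin libraries from the same counts that were then tested. Deviations of same-numbered stromal sums correlated at 0.214, 0.199 and 0.352, and different numbers at -0.251 to 0.0347. For whole skin libraries the same numbers gave 0.256, 0.127 and 0.526 and different numbers -0.403 to 0.212, with number 2 under the pairs of bleomycin 1 with PBS 2 and bleomycin 2 with PBS 1 (0.186). The numbers come from the sample titles, and the pairing from this check.

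The 8 members are named in every comparison, and of each pathway list up to 5 genes per direction past the threshold with the largest change. The members and lists were chosen with earlier results of these data known. Alternatives covered normalization, filters, gates, shared barcodes, Schwann marker UMIs, subsets, the block and each left-out library.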

Additional observations from a re-analysis of the deposited data

Results flagged for a closer look

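The gene list of 4 skin libraries also held an entry for human ZFYVE9, the gene of the study's transgene, which the comparisons of the members did not use. It was read at 843 CPM in SARAWT PBS 1, 188 CPM in SARAWT PBS 2, 87.8 CPM in SARAWT bleomycin 1 and 113 CPM in SARAWT bleomycin 2, all labelled without the transgene. It drew attention as a signal in data outside the main measurement and above what a count of 0 allows. The other 13 libraries did not list this entry, and its relation to the levels of the 8 members was not tested.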

How the results depend on the processing

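The limits that bear on the members are the 3 libraries a group, the software version, gene list and Xist level that set skin libraries 1 and 2 apart from 3, barcodes shared between skin libraries, mural sums of 10 to 46 cells and almost no kidney stromal cells. The cause of each change below was not tested. Over all alternatives 531 single-member values kept their direction and side of the threshold, 47 passed only under the alternative, 3 lost the threshold and 50 changed sign, and the share of stromal cells (difference -11.8 to -5.00 percentage points over left-out libraries) held its direction, as did the stromal against mural count (5 or 6 of 8 members, Prelp being the one lost without TMM, without SARATg PBS 1 and without SARAWT PBS 3). Ogn was lower after bleomycin in 26 of 26 alternatives in stromal cells (-2.80 to -0.54, passing in 11), Podn in 26 of 26 (passing in 7), Aspn in 26 of 27 (passing in 4) and Dcn in 25 of 27 (passing in 0).

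In skin stromal cells the count of members called, 0 in the reported fit, was 1 with DESeq2, without a filter on low counts, with all groups in 1 fit, with mixed cells kept and in Cthrc1/Postn cells, and 2 in cells outside the lists. With the replicate block it was 3, with libraries 1 and 2 alone 3, without shared barcodes 1, without Schwann marker UMIs 2, in Cthrc1/Postn cells 2 and in cells outside the lists 2, and in Cthrc1/Postn cells without Schwann marker UMIs it was 0 with and without the block. It ranged from 0 to 1 over the left-out libraries. The count of all genes called fell from 935 to 54 without shared barcodes and to 58 without Schwann marker cells, rose to 1650 with the block and 1455 with DESeq2, and lay between 44 and 670 over the left-out libraries. Sign changes were Prelp at 0.87 in Crabp1/Corin and 0.26 in Cyp2f2/Mmp3 cells, Lum at 4.68 and 0.0143, Dcn at 3.14 and Aspn at 2.01 in Crabp1/Corin cells (2 libraries a group), Dcn at 0.22 and Lum at 0.35 without shared barcodes, Lum at 0.0884 without them in the blocked fit and at 0.192 with the block in Cthrc1/Postn cells without Schwann marker UMIs, Bgn at -0.13 in Cthrc1/Postn cells and -0.0904 there with the block, and Fmod at -0.40 with the block and no Schwann marker UMI, at -0.24 with the block outside the lists and at -0.90 to 1.55 over left-out libraries.

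In whole skin libraries the count, 0 as reported, was 1 without TMM, 5 with DESeq2, 1 without a filter, 5 with all groups in 1 fit, 6 with the block, and 0 to 3 over left-out libraries. Fmod changed sign to -0.0837 without TMM, -0.15 with the block, -0.29 with the block in libraries 1 and 2 and -0.59 with the block and no shared barcodes, and ranged from -1.10 to 0.67 over left-out libraries, as Bgn did from -0.68 to 0.10. In mural cells the count was 0 to 1 over left-out libraries, Bgn ranged from -0.0842 to 1.75, and with mixed cells kept Prelp stood at -0.00347 and Aspn at -0.58. Between stromal and mural cells, dropping TMM moved the median of all genes from 0.18 to -0.03, Fmod was -0.24 without TMM, -0.12 without shared barcodes, -0.00287 with mixed cells kept and -0.30 to 0.48 over left-out libraries, and Aspn was 0.13 with the 500-gene filter and 0.16 with the stricter gate.

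In kidney the numbers were not taken as a pairing, with same-number correlations of -0.378, 0.419 and 0.305 for aristolochic acid, and of 0.212 and 0.177 for SARATg against SARAWT vehicle (different numbers -0.212 to 0.047), where only 2 pairs exist. Under aristolochic acid the count was 0 to 1 over left-out libraries, Ogn turned to 0.335 with the block, and over left-out libraries Ogn ranged from -0.84 to 1.39, Dcn from -1.88 to 1.16, Bgn from -2.32 to 0.76 and Fmod from -0.76 to 0.54. For SARATg against SARAWT vehicle the count was 1 with the block (Bgn, 2.76) and 0 to 1 over left-out libraries, where Dcn ranged from -3.15 to 5.58, Lum from -3.97 to 1.5, Ogn from -1.45 to 4.45, Prelp from -0.44 to 2.46, Fmod from -2.22 to 2.45 and Podn from -0.79 to 0.18. Fits of Pi16/Dpp4 cells, of kidney stromal and mural cells and of mural cells under the stricter filters, the stricter gate or without shared barcodes had too few libraries of 10 cells and were not run.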

Other observations

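For each member, the genes with the most similar pattern were sought over 40 skin sums of 8 cell classes, among 6027 genes, by Pearson's r of log2(CPM + 1). The sums share libraries and depth, so the r values are a description. Dcn ran closest to Mmp3 (0.916), Pdgfra (0.913), a receptor that marks fibroblasts and a gene of the stromal gate, and Sfrp2 (0.905), and Lum to Mmp3 (0.954), Ptgfr (0.950) and Tspan11 (0.941). Bgn ran closest to Ltbp1 (0.937), which tethers latent TGF-β, the collagen cross-linker Lox (0.923) and Mxra8 (0.905). Aspn and Fmod had Pth1r as their nearest gene, at 0.929 and 0.884. Podn ran closest to Itgbl1 (0.965), Prelp to Ntn1 (0.913) and Ogn to Col5a2 (0.849), the lowest of these nearest values.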
